A study of Homo sapiens with 4 samples.

Results

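The albumin cluster and its liver companions were followed on 4 arrays in HuH7 cells, a line from a human hepatocellular carcinoma known for secreting albumin and alpha-fetoprotein. The genes were listed by name as ALB, AFP, AFM and GC (the albumin family), ZBTB20 and ZHX2 (known repressors of AFP) and GPC3 (an oncofetal surface protein). Every probeset that the platform annotation assigns to one of these symbols alone was taken, leaving out probesets whose names mark cross-hybridization. This gave 22 probesets for 6 of the 7 genes, out of 54613 probesets and 19775 genes in all. No probeset carries the symbol GC in the annotation used, so the vitamin D binding protein that it encodes was not analysed here.

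The parental group, F0, had 2 arrays, here F0 (1) and F0 (2), and the drug-resistant groups F6 and F12 had 1 array each. F6 and F12 were derived from HuH7 tumors in NOD/SCID mice injected with JNJ-28841072, an inhibitor of VEGFR and aurora kinases. Tumors resistant to it were cut into pieces and regrafted, 6 times for F6 and 12 times for F12, while the phenotype label of both names resistance to sorafenib. All groups share the HuH7 background, and RNA of every sample came from tissue specimens. NOD/SCID mice lack functional lymphocytes but keep other host cells such as macrophages, fibroblasts and vessels. The labels leave unstated whether parental specimens were grown in mice, whether they came from separate cultures or tumors, or how many tumors entered a sample. They also name no untreated tumor regrafted as often. The p-values below thus reflect no more than the spread of these samples, possibly a technical one.

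Albumin, alpha-fetoprotein, afamin (AFM) and the vitamin D binding protein are related carrier proteins of the blood, made mainly by the liver from genes on chromosome 4. Fetal liver makes large amounts of alpha-fetoprotein, which is shut down after birth while albumin synthesis goes on, and many hepatocellular carcinomas make alpha-fetoprotein again. ZBTB20 and ZHX2 are nuclear proteins that act in the postnatal silencing of AFP, and GPC3, a heparan sulfate proteoglycan of the cell surface, is likewise high in fetal liver and in hepatocellular carcinoma and low in adult liver.

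The ALB, AFP and AFM genes lie next to each other in this order, and the sequences before their starts are shown because ALB and AFP read well above background here while AFM stayed near it. The RefSeq promoter table (GRCh38.p14) holds windows for 4 of the 7 genes (ALB, AFP, AFM and ZBTB20), and 8 of these windows belong to ZBTB20. The printed bases are the 250 before each start on the plus strand. They are chr4:73404037-73404286 for ALB, chr4:73435971-73436220 for AFP and chr4:73481495-73481744 for AFM. Capitals mark matches, on either strand, to GTTAAT (a half-site of the liver factor HNF1), TTGGC (a half-site of nuclear factor I), CCAAT (the CCAAT box) and TATAAA (the TATA box). Matches to TTGGC and CCAAT can overlap.
ALB: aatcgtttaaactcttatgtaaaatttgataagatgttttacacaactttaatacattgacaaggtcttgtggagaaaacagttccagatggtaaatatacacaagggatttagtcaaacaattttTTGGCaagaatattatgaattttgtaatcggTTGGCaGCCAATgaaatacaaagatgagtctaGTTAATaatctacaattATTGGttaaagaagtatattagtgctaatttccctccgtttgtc
AFP: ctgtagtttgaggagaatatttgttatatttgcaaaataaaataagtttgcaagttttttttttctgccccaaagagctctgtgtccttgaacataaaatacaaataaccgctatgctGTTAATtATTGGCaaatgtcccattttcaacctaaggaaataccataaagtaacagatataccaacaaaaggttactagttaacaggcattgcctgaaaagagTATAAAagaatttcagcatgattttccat
AFM: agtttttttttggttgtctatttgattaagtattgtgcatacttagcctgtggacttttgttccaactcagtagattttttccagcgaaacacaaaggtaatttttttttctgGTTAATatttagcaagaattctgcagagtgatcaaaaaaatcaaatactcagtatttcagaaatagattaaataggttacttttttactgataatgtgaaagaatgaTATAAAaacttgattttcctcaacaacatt

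Each of the windows holds 1 match to GTTAAT, a motif found in 6.23% of the 35116 windows of this length in the table. The match begins 61 bases before the start of ALB, 132 before that of AFP and 137 before that of AFM. TATAAA, found in 10.7% of windows, begins 29 bases before the AFP start and 30 before the AFM start, and these letters are not in the ALB window. TTGGC (40.8% of windows) is present 3 times in ALB and 1 time in AFP, and CCAAT (32% of windows) 2 times and 1 time, while AFM holds neither. G and C make up 30% of the bases in the ALB window, 31.6% in AFP and 28% in AFM, against a median of 58% over all windows. The shares over all windows thus do not come from windows of like composition. These are matches of letters and not measured binding.

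Values below are log2 signals of 1 representative probeset per gene, the one with the highest mean, where a difference of 1 is 2-fold. The array medians lay between 4.67 and 4.85, and a signal under 6 is called near background. Signals of different genes come from different probes and are not set against each other. A lower signal in a tissue sample can reflect fewer cells of a type or less RNA per cell, which cannot be told apart here.

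ALB, which encodes albumin, the main protein of blood plasma, read 10.18 on F0 (1), 13.75 on F0 (2), 12.41 on F6 and 13.58 on F12. F12 stood beside F0 (2), and F6 lay between the parental arrays. The parental mean was 11.96 ± 2.52 (SD, n = 2), an 11.9-fold difference between the parental arrays. AFP, which encodes the fetal counterpart of albumin, read 8.88 on F0 (1), 13.73 on F0 (2), 11.95 on F6 and 12.60 on F12. Both resistant samples lay inside the parental range, which spanned 28.8-fold (mean 11.30 ± 3.43, SD, n = 2). AFP was therefore 8.37-fold higher in F6 and 13.2-fold higher in F12 than on F0 (1), yet 3.44-fold and 2.18-fold lower than on F0 (2).

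AFM, which encodes afamin, a carrier of vitamin E, read 4.34 on F0 (1), 3.33 on F0 (2), 3.56 on F6 and 3.27 on F12. All 4 signals were near background, so no difference in afamin messenger RNA can be read from them.

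GPC3, the glypican used as a marker of hepatocellular carcinoma, read 8.16 on F0 (1), 12.77 on F0 (2), 11.12 on F6 and 13.16 on F12. F12 was the highest array, 0.39 above F0 (2), and F6 again fell between the parental arrays. The parental mean was 10.47 ± 3.26 (SD, n = 2). The other GPC3 probeset (243243_at) read 3.76, 5.12, 4.20 and 6.23 in the same order. It passed 6 on F12 alone, where it lay 1.11 above the higher parental array, as 1.63% of all probesets with 1 gene symbol did by at least 1. Its other arrays were near background, so the agreement between the GPC3 probesets goes no further than F12 being the highest array on both.

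ZHX2, which encodes a zinc-finger and homeobox protein that restrains AFP in adult liver, read 7.63 on F0 (1), 9.88 on F0 (2), 9.72 on F6 and 8.90 on F12. F6 stood beside F0 (2) and F12 lay near the middle of the parental range, so the resistant samples were in the opposite order to those of AFP and GPC3. The parental mean was 8.75 ± 1.59 (SD, n = 2). The second ZHX2 probeset (1557706_at) stayed between 3.02 and 3.84 and gives no usable level.

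ZBTB20, which encodes a zinc-finger repressor that binds the AFP promoter, read 5.83 on F0 (1), 7.44 on F0 (2), 5.85 on F6 and 7.54 on F12. F12 stood beside F0 (2), and F0 (1) and F6 were both near background, so these last signals do not show that their levels were equal. The parental mean was 6.64 ± 1.14 (SD, n = 2).

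The probesets of ALB did not give the same order of F6 and F12. Probeset 211298_s_at, given above, was 1.17 higher on F12 than on F6. Probeset 1565228_s_at read 9.54 on F0 (1), 11.34 on F0 (2), 11.68 on F6 and 10.51 on F12, which is 1.17 lower on F12 than on F6. Probeset 214842_s_at read 6.97, 8.29, 8.57 and 7.76, with F6 highest as well. The fourth, 214837_at, reached 5.27 at most and was near background on every array. All 4 ALB probesets were higher on F0 (2) than on F0 (1), by 1.32 to 3.57. Whether ALB was higher in F12 than in F6 therefore depends on the probeset, and the cause of the disagreement was not tested.

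The 12 probesets of ZBTB20 agreed better. On 10 of them F0 (2) was at least 2-fold above F0 (1), and F12 at least 2-fold above F6, with medians over all 12 of 2.37 and 2.65. Among these 10, 222357_at was near background on every array, reaching 4.89 at most. Of all probesets with 1 gene symbol, 24.6% were at least 2-fold higher on F0 (2) than on F0 (1), and 20% on F12 than on F6. The widest parental difference was on 213156_at, which read 2.88 on F0 (1), 8.34 on F0 (2), 4.73 on F6 and 8.28 on F12. Probeset 227082_at read 2.99, 7.04, 2.89 and 6.63 in that order, and 213158_at read 4.35, 8.04, 4.80 and 7.99. On these ZBTB20 probesets F0 (1) and F6 were near background, so a fold against them is only a lower limit.

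F6 was lower than F0 (2) by at least 2-fold on 9 of the 12 ZBTB20 probesets, and on 20.4% of all probesets. F12 differed from F0 (2) by less than 2-fold on all 12, between -0.80 and 0.32. Probeset 235308_at was the one on which F6, at 4.75, lay 2-fold below both parental arrays (5.98 and 7.70), with 0.436% of all probesets doing so, though F6 and F0 (1) were both near background there. In the opposite direction, 232929_at was lower on F0 (2) and F12 (4.4 and 4.41) than on F0 (1) and F6 (5.65 and 5.39), all near background, and 244581_at stayed under 4 on every array. The representative probeset of ZBTB20 thus showed a smaller difference between F12 and F6 (1.68) than the median of its probesets.

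**Figure D1:**
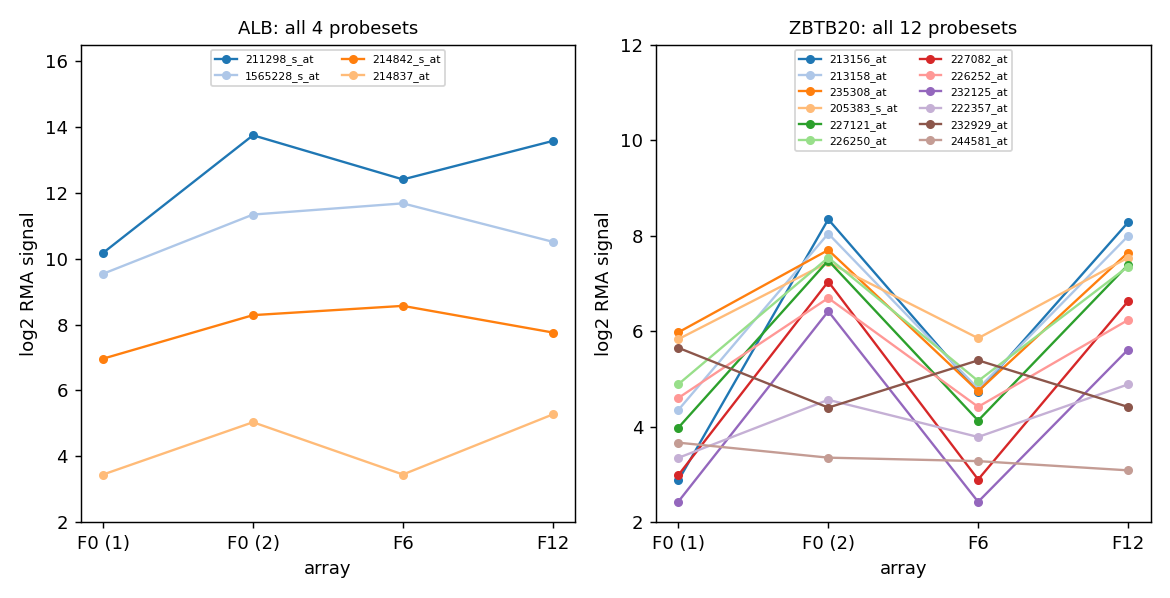
Log2 RMA signal (vertical axis) of every ALB probeset (left) and every ZBTB20 probeset (right) on the 4 arrays (horizontal axis), 1 line per probeset joining its values to guide the eye. F6 is above F12 on ALB probesets 1565228_s_at and 214842_s_at and below it on the other ALB probesets. On 10 of 12 ZBTB20 probesets F0 (1) and F6 are lower than F0 (2) and F12, though 222357_at among them is under 6 on every array.

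F6 was set against F0 to see how these genes stood after 6 regrafts under treatment. Against the parental mean the log2 difference was 0.44 for ALB, 0.64 for AFP, 0.65 for GPC3, 0.97 for ZHX2, -0.78 for ZBTB20 and -0.27 for AFM. By its representative probeset each of the 6 genes lay between the parental arrays on F6, as did 76.3% of all genes. ALB probesets 1565228_s_at and 214842_s_at instead had F6 above both parental arrays, by 0.34 and 0.28. Nor was any of the 6 representative probesets 2-fold from the parental mean, as 3.54% of all genes were upward and 4.56% downward. ALB probeset 1565228_s_at, however, was 1.24 above its parental mean. Of the 12 ZBTB20 probesets 7 were at least 2-fold below their parental means, and the mean of all ZBTB20 probesets differed by -1.12. F6 was near background on all 12 ZBTB20 probesets. By its representative probeset none of the 6 genes was at least 2-fold beyond both parental arrays, against 0.576% of all genes above both and 0.561% below both. In limma each difference had an SE of 1.74 and an adjusted p of 1. The SE is 1 value because eBayes pooled the spread over all genes, and the parental pair, the only replicates, gave that spread. In limma 0% of genes passed the threshold of 0.05 (0 of 19775, with 7 at an unadjusted p under 0.05). Without F0 (1) the differences of ALB (-1.34), AFP (-1.78) and GPC3 (-1.65) in F6 were below 0, and without F0 (2) they were 2.23, 3.07 and 2.95.

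F12 was set against F0 in the same way, for 12 regrafts. Against the parental mean GPC3 was 2.70 higher, ALB 1.61, AFP 1.3, ZBTB20 0.90 and ZHX2 0.15, and AFM was 0.57 lower. GPC3, ALB and AFP were past 2-fold upward, as were 19.4% of all genes and 30.8% of those reaching a signal of 6 on some array, and none was past it downward (8.94% of all genes). The value of ALB rests on probeset 211298_s_at, since the other ALB probesets above background, 1565228_s_at and 214842_s_at, were 0.07 and 0.13 above their parental means and the mean of all ALB probesets was 0.71 above. None of the 6 genes was 2-fold beyond both parental arrays, where 1.93% of all genes lay above and 1.37% below. Among them 3 (ALB, AFP and ZHX2) lay between the parental arrays, as did 50.1% of all genes. In limma each adjusted p was 1 with an SE of 1.74, and again 0% of genes passed (85 at an unadjusted p under 0.05). Against F0 (2) alone the F12 differences were small for ALB (-0.17), GPC3 (0.39) and ZBTB20 (0.10), and larger for AFP (-1.13) and ZHX2 (-0.98). Against F0 (1) alone they were 3.40, 5.0 and 1.70, and 3.72 and 1.27.

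The comparison of F12 with F6 sets later against earlier rounds. Its differences do not use the parental arrays, but its error in limma comes from the parental pair alone. GPC3 was 4.13-fold higher in F12 and ALB 2.25-fold (ALB with the probeset disagreement described above). ZBTB20 was 3.21-fold higher by its signals, a lower limit since F6 was near background. Of all genes, 20.2% were at least 2-fold higher (31.2% of those reaching 6). AFP was 1.57-fold higher, and ZHX2 was 1.77-fold lower, inside the 2-fold limit that 14.7% of all genes passed downward. In limma the SE was 2.01 and each adjusted p was 1, with 0% of genes passing and 116 at an unadjusted p under 0.05. With F6 and F12 together against F0 the differences of the 6 genes ran from -0.42 for AFM to 1.67 for GPC3 (SE 0.66 and 1.77), each with an adjusted p of 1 in limma, and 0% of genes passed (45 at an unadjusted p under 0.05).

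The parental pair itself was far apart. F0 (2) was at least 2-fold above F0 (1) for 25% of all genes (39.4% of those reaching 6) and at least 2-fold below for 34.1%. ALB, AFP, GPC3, ZHX2 and ZBTB20 were among the first group and AFM, near background, among the second. Of the 4938 genes at least 2-fold higher on F0 (2), 4600 (93.2%) were also higher on F12 than on F6 and 335 (6.78%) were lower. AFP, GPC3 and ZBTB20 belonged to the larger class and ZHX2 to the smaller one. ALB was in the larger class by 211298_s_at, while 1565228_s_at and 214842_s_at were lower on F12 than on F6 by 1.17 and 0.81.

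**Figure D2:**
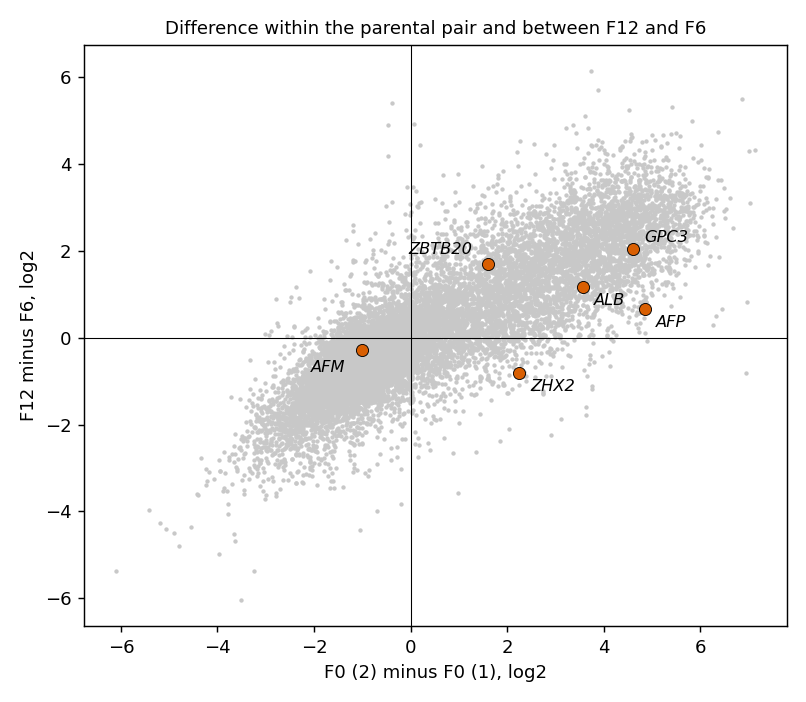
Log2 difference between the parental arrays, F0 (2) minus F0 (1) (horizontal axis), against F12 minus F6 (vertical axis), with 1 grey point per gene and the 6 measured genes of the set in orange. GPC3 (4.61 and 2.05), ALB (3.57 and 1.17), AFP (4.85 and 0.65) and ZBTB20 (1.61 and 1.68) lie above and to the right of 0, and ZHX2 (2.25 and -0.82) lies below the horizontal line.

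The place of each resistant sample between the parental arrays was fitted over all genes, with 0 for F0 (1) and 1 for F0 (2), and came to 0.411 for F6 and 0.963 for F12. On their own scales ALB, AFP and GPC3 had F6 at nearly the same place, 0.62, 0.63 and 0.64. ZHX2 had F6 at 0.93. F12 lay at 0.95 for ALB, 0.77 for AFP, 1.09 for GPC3 and 0.57 for ZHX2. The values for ALB are those of probeset 211298_s_at. On 1565228_s_at and 214842_s_at F6 lay beyond F0 (2), at 1.19 and 1.21, and F12 at 0.54 and 0.60. That ALB shared the F6 place of AFP and GPC3 therefore depends on the probeset. No position is given for ZBTB20 or AFM, whose signals on F0 (1) and F6 were near background. When the value expected from the fit was subtracted, AFP was 1.03 above it in F6 and 0.96 below it in F12, and ZHX2 was 1.12 above and 0.91 below. These values carry no test. Spreads about the fit over all genes were 0.53 for F6 and 0.58 for F12 (SD across genes).

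**Figure D3:**
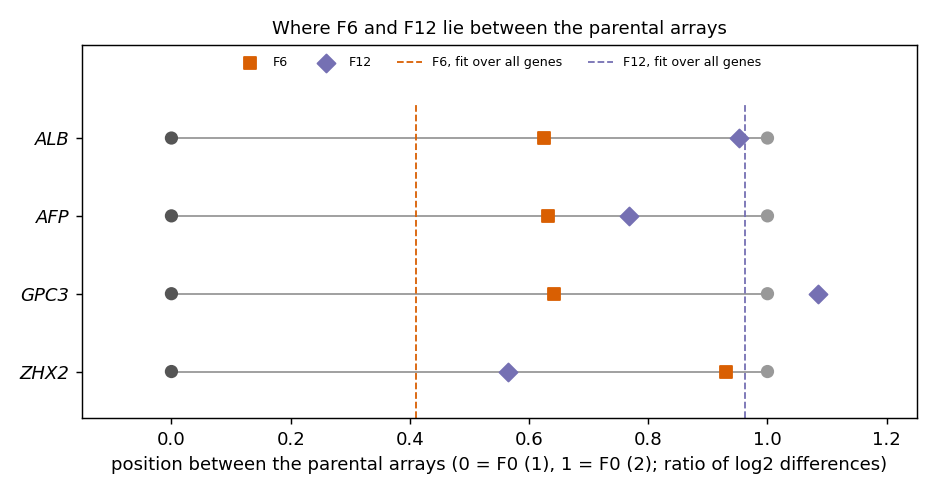
Position of F6 (squares) and F12 (diamonds) for ALB, AFP, GPC3 and ZHX2 on a scale where F0 (1) is 0 and F0 (2) is 1 (grey circles), with dashed lines for the position fitted over all genes. F6 lies at 0.62 to 0.64 for ALB, AFP and GPC3 and at 0.93 for ZHX2, against 0.411 over all genes.

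AFP, ALB and GPC3 did not move by equal amounts within the arrays. Relative to ALB, AFP was higher by 1.28 on F0 (2) than on F0 (1), and lower by 0.95 on F12 than on F0 (2). Relative to AFP, GPC3 differed by only -0.24 between the parental arrays and was 1.52 higher on F12 than on F0 (2). With 1 array on each side these within-array differences have no replicate check, and those with ALB rest on probeset 211298_s_at.

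Among genes with a log2 signal of at least 6 on 1 array, the profiles closest to each gene were found by Euclidean distance between centred log2 values over the 4 arrays. Closest to ALB were GID4 and ITPR1 (distance 0.09 each) and SEC23A (0.10), a coat protein of vesicles that leave the endoplasmic reticulum. Closest to AFP were the mitotic kinase MASTL (0.08), DCAF16 (0.12) and the kinase PBK (0.15). Closest to GPC3 were NAA35 (0.04), MAP3K4 (0.07) and FAM3C (0.10). ZBTB20 was closest to NFIB (0.09), a member of the nuclear factor I family, which read 4.88 on F0 (1), 6.58 on F0 (2), 5.0 on F6 and 6.60 on F12, followed by METTL25 (0.14) and FAM111A-DT (0.15). ZHX2 had no profile as close, the nearest being the mitotic cyclin CCNB2 (0.23), MATR3 (0.25) and ENC1 (0.25). For AFM, near background, they were IFNLR1 (0.04), CSF3 (0.06) and LARGE2 (0.07). Over 4 arrays, with 11923 genes ranked, such closeness is a description only.

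The neighbours of the cluster on chromosome 4 were read as well. ANKRD17, next to ALB on the far side from AFP, read 5.96 on F0 (1), 9.04 on F0 (2), 6.35 on F6 and 8.75 on F12. RASSF6, the first gene beyond AFM, read 3.24, 4.14, 3.30 and 4.04. ANKRD17 was near background on F0 (1) alone and just above it on F6, and RASSF6 was near background on every array.

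Known activators of the ALB and AFP promoters were measured for 12 of 15 listed genes, and 0 of the 12 lay at least 2-fold beyond both parental arrays in F6 or F12. The shares over all genes, for this list and those below, were 0.576% above and 0.561% below in F6, and 1.93% and 1.37% in F12. The median difference of the activators from the parental mean was 0.27 in F6 and 0.57 in F12, against 0.06 and -0.24 over all genes and 0.10 and -0.03 over those reaching 6. The CCAAT/enhancer binding protein CEBPB read 12.12 on F0 (1), 12.20 on F0 (2), 12.09 on F6 and 12.66 on F12, within 2-fold on all arrays. CEBPA (12.27, 10.60, 11.94 and 11.20) and FOXA3, a forkhead factor of liver (10.74, 8.44, 10.62 and 8.95), were highest on F0 (1), where ALB and AFP were lowest. Between the parental arrays the list went both ways. Of the 12 activators 5 were at least 2-fold higher on F0 (2), as ALB and AFP were, and 3 at least 2-fold lower. Over all genes the shares were 25% and 34.1%. FOXA2 read 9.75, 10.32, 10.45 and 10.66. Of the ZHX2 relatives, ZHX1 read 4.74, 8.62, 5.07 and 8.38, near background on F0 (1) and F6 as ZBTB20 was, and ZHX3 read 6.77, 5.74, 6.37 and 5.91.

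Of 30 other plasma proteins of hepatocytes (32 listed), 2 lay at least 2-fold above both parental arrays in F6 and 2 in F12, and 0 below in either. In F6 these were SERPINA1, the antitrypsin gene (13.82 against 12.43 and 11.20), and AHSG, fetuin A (11.29 against 9.91 and 9.45). In F12 they were FGA, the fibrinogen alpha chain (11.25 against 9.57 and 9.67), and ITIH2 (11.69 against 7.86 and 10.12). Transferrin (TF), an iron carrier, had the array order of ALB probeset 211298_s_at, at 12.16, 14.24, 13.33 and 14.01. AFP had that order too, and the share of all genes with it was not counted. RBP4 (13.50, 12.96, 13.46 and 12.52), AMBP (12.81, 12.84, 12.84 and 13.28) and APOA2 (13.86, 13.93, 13.77 and 13.54) stayed within 2-fold across the 4 arrays. Between the parental arrays the list went both ways, with 9 of the 30 genes at least 2-fold higher on F0 (2), as ALB and AFP were, and 10 at least 2-fold lower. The shares over all genes were near these, at 25% (39.4% of those reaching 6) and 34.1%.

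Other oncofetal and progenitor genes were measured for 12 of 14 listed. At least 2-fold above both parental arrays were 1 in F6 and 2 in F12, and 0 were below in either. SALL4, a fetal liver transcription factor, read 9.28 on F6 and 8.57 on F12 against 7.28 and 7.29, and PROM1, a stem cell surface marker, read 11.82 on F12 against 5.51 and 9.71. LIN28B, an RNA-binding protein that blocks let-7 maturation, read 5.87 on F0 (1), 11.05 on F0 (2), 8.69 on F6 and 10.92 on F12, and HMGA2, a let-7 target, read 8.24, 11.22, 10.44 and 11.01, in both cases the array order of that ALB probeset. EPCAM read 7.23, 11.17, 8.36 and 11.01, and CD24 read 11.36, 11.85, 11.38 and 11.60. The median of these genes between the parental arrays was 2.02, against -0.60 over all genes and -0.07 over those reaching 6.

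Among 11 of 12 other glypicans and heparan sulfate modifiers, 0 lay at least 2-fold beyond both parental arrays. GPC6, a relative of GPC3, read 5.23 on F0 (1), 8.67 on F0 (2), 6.51 on F6 and 9.0 on F12, the same order as GPC3. Of the enzymes that build the heparan sulfate chains, EXT2 (8.22, 7.77, 8.46 and 8.65) stayed within 2-fold, and EXT1 (7.79, 8.98, 8.54 and 8.66) was lowest on F0 (1). NDST1, which sulfates these chains, read 8.19, 6.36, 7.88 and 6.00, opposite in direction to GPC3. Of 9 of 10 genes for albumin and vitamin D handling, 1 lay 2-fold above both parental arrays in F12, the vitamin D 25-hydroxylase CYP2R1 (9.31 against 5.90 and 8.24). FCGRT, the receptor that rescues albumin from breakdown, read 10.15 on F0 (1), 6.98 on F0 (2), 9.54 on F6 and 6.78 on F12, opposite in direction to ALB between the parental arrays. Its partner subunit B2M read 11.12, 12.79, 11.44 and 12.43, in the direction of ALB. CYP27A1, another vitamin D hydroxylase, read 8.98, 7.35, 8.52 and 7.14, and the nuclear receptor RXRA read 9.65, 8.82, 9.32 and 8.85.

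Most fibroblast, endothelial and macrophage markers were near background. Of 6 fibroblast genes 1 reached 6 on any array, of 6 endothelial genes 1, and of 5 macrophage and leukocyte genes 2. The mean log2 signal on F0 (1), F0 (2), F6 and F12 was 4.63, 4.25, 4.37 and 4.06 for fibroblast genes, 5.01, 4.17, 4.74 and 4.28 for endothelial genes, and 5.65, 5.74, 5.98 and 4.88 for macrophage genes. Among the macrophage genes those reaching 6 were LYZ, the lysozyme gene (8.34, 11.98, 10.99 and 9.20), and CD14 (6.89, 6.22, 6.62 and 5.16), which in F12 was 2-fold below both parental arrays. Of 5 biliary markers 3 reached 6, EPCAM as given above, SOX9 (8.78, 10.23, 10.33 and 9.34) and KRT7 (7.40, 5.27, 6.43 and 5.53). These markers were read with probesets for human genes, whereas host cells of tumors grown in mice are mouse cells. Low marker signals therefore do not show how much host tissue was present. The part of other cells in the differences of ALB, AFP and GPC3 was not tested.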

How the data were processed

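Per the submitters' processing notes the authors made the deposited values with RMA in the affy package, which corrects background, normalizes quantiles over arrays and gives 1 log2 value per probeset. The version of either and the settings used are not stated in those notes. Values of this kind carry no depth, and precision is limited by how many arrays there are. Of 54613 probesets, 41091 had 1 gene symbol in the platform annotation, 1801 several and 11721 none. Each of 19775 genes was represented by its probeset of highest mean, passing over _x_at probesets where it had others (419 genes had only those). The test was limma (version 3.58.1, R 4.3.3; lmFit and eBayes) over all genes with Benjamini-Hochberg adjustment at 0.05. F0, F6 and F12 were fitted as 3 groups, with the parental pair alone giving the error, and F6 with F12 against F0 as 2 groups. The fit was run on simulated data whose noise was far smaller than the spread of the parental pair. That run does not show which changes could be found in these arrays. The genes and lists were chosen with earlier results of these data known. Named list genes are those 2-fold beyond both parental arrays with a signal of 6 or more, or among the 4 of highest mean in their list. The 3 nearest profiles of each gene are named. The 8 alternatives planned concern the probeset, the _x_at rule, a filter at 6, median centring, each F0 array left out, the eBayes trend and the position between the F0 arrays, and testing every probeset was added after the data were seen.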

Additional observations from a re-analysis of the deposited data

How the results depend on the processing

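No paired analysis was possible because F6 and F12 have 1 array each and the sample titles pair neither with an F0 array. The count of genes past the limma threshold stayed at 0 under the alternatives that give one, except that with the mean of probesets 1 gene (BEX1, no member of the set) passed for F12 against F0. The position adjustment, and leaving out an F0 array of the 3-group fit, give values without a test. None of the 24 differences of the 6 genes passed under any alternative. Of 212 values under alternatives 26 changed sign, 15 of them on leaving out an F0 array. Without one or the other F0 array, 4 of the 6 genes were 2-fold from the F0 array left in F6, and 1 to 6 in F12. The 6 include AFM, which was near background on every array. The matching shares over all genes were not counted, but 20.4% of all probesets were at least 2-fold lower on F6 than on F0 (2). These counts therefore show no trait of the 6 genes. The F6 differences then ranged from -1.34 to 2.23 for ALB, -1.78 to 3.07 for AFP, -0.78 to 0.23 for AFM, -1.59 to 0.020 for ZBTB20, -0.16 to 2.09 for ZHX2 and -1.65 to 2.95 for GPC3. The F12 differences ranged from -0.17 to 3.40 for ALB, -1.13 to 3.72 for AFP and -0.98 to 1.27 for ZHX2. With F6 and F12 together they ranged from -0.76 to 2.81 for ALB, -1.45 to 3.39 for AFP, -0.93 to 0.086 for AFM, -0.75 to 0.86 for ZBTB20, -0.57 to 1.68 for ZHX2 and -0.63 to 3.98 for GPC3. After the position adjustment the F12 difference from F0 was -0.054 for ALB, -0.96 for AFP and -0.91 for ZHX2, and the difference of F12 from F6 was -0.77 for ALB, -1.99 for AFP, 0.30 for AFM and -0.46 for GPC3. With the mean of probesets ZHX2 in F12 against F0 was -0.14. ZBTB20 in F6 and F12 together was -0.048 with the mean of probesets, -0.040 with arrays centred on their medians and -0.27 after the position adjustment. That centring moved F12 against the F0 mean, and F0 (2) against F0 (1), by 0.13. The cause of these sign changes was not tested. Signals under 6, as for AFM on every array and for F0 (1) and F6 on all 12 ZBTB20 probesets, limit what differences can show.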
